A study of Mus musculus with 12 samples.

Results

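The complement system was followed through 9 genes: C1qa, C1qb and C1qc, which encode the subunits of C1q, the components C3 and C4b, the anaphylatoxin receptor genes C3ar1 and C5ar1, Itgam, which encodes the CD11b subunit of complement receptor 3, and Serping1, which encodes the C1 inhibitor. They were listed by name as components and receptors of the system, with earlier results of these data known. All 9 were found among the 55487 genes of the count table, and all 9 were among the 15425 genes that passed the filter on low counts.

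RNA was sequenced in bulk from cells that magnetic beads against CD11b had captured from the cerebral cortex of 12 male mice. WT mice and App NL-G-F mice (App), a knock-in model in which the mouse App gene carries familial Alzheimer's disease mutations in every cell that uses it, received PBS (veh) or rh Bri2 BRICHOS R221E, a recombinant human chaperone domain with a point mutation. Each strain gave a veh-treated and a BRICHOS-treated group, so that there were 4 groups of 3 mice. All groups shared the schedule of 24 intravenous injections over 12 weeks from 9 months of age, the dose of the protein being 10 mg/kg, and a treatment-free interval before the brains were taken. The mice are numbered 1 to 3 within each group.

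The complement cascade tags debris, microbes and synapses for removal. C1q starts the classical pathway, which runs through C4 to C3, and cleaved C3 is bound by complement receptor 3 (CD11b paired with CD18) on phagocytes, while the released fragments C3a and C5a signal through C3ar1 and C5ar1. In the brain, C1q is made mainly by microglia, C4 largely by astrocytes and oligodendrocytes, and the C1 inhibitor restrains the first proteases of the pathway.

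Libraries held 12433402 to 17889654 counted reads, at which 3 counts, taken as the smallest detectable level, correspond to 0.169 to 0.227 CPM (counts relative to the library total, scaled with edgeR's TMM factors), a limit that covers counting error only. The 10 microglial markers listed had a summed level of 27088 to 33105 CPM, and none of them was at 0. RNA of other cells was present in every library. The summed level of 10 astrocyte markers was 481 to 679 CPM in veh-treated WT, 486 to 941 in BRICHOS-treated WT, 1534 to 4912 in veh-treated App and 703 to 2056 in BRICHOS-treated App mice, and that of 6 neutrophil markers was 32.8 to 366, 66.3 to 359, 13.3 to 33.8 and 11.5 to 31.0 CPM in the same order. In such bulk samples, fewer cells of a type and less RNA per cell cannot be told apart.

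In veh-treated WT mice the members spanned from among the most abundant transcripts of these cells to the lower end of the genes tested. On a scale that allows levels of different genes to be compared (CPM per kilobase of exon), the order was C1qa with 3618 ± 181 (mean ± SD, n = 3), C1qb with 3086 ± 138, C1qc with 1761 ± 99.5, Itgam with 102 ± 1.73, C3ar1 with 90.8 ± 4.46, C5ar1 with 48.1 ± 3.54, C4b with 13.8 ± 2.04, C3 with 2.37 ± 0.725 and Serping1 with 0.904 ± 0.191. C1qa ranked between 4 and 6 among all tested genes by its mean in each group. No neighbours in this order overlapped between these mice. The place of C1qc below C1qb depends on the length used. With the exons of all annotated transcripts, 1931 bases for C1qc and 1088 for C1qb, the level of C1qc was 0.563 to 0.585 times that of C1qb in veh-treated WT mice, and with the longest single transcript, 1203 bases for C1qc, it was 0.904 to 0.938 times.

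The order of C3ar1 and Itgam was turned in veh-treated App mice, where C3ar1, at 113 to 120 CPM per kilobase, stood above Itgam, at 81.4 to 85.6. C3, at 7.99 to 17.0 CPM per kilobase, stayed below C4b, at 22.0 to 36.4. In BRICHOS-treated App mice, C3 at 11.6 to 31.0 and C4b at 12.5 to 28.2 CPM per kilobase overlapped.

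**Figure D1:**
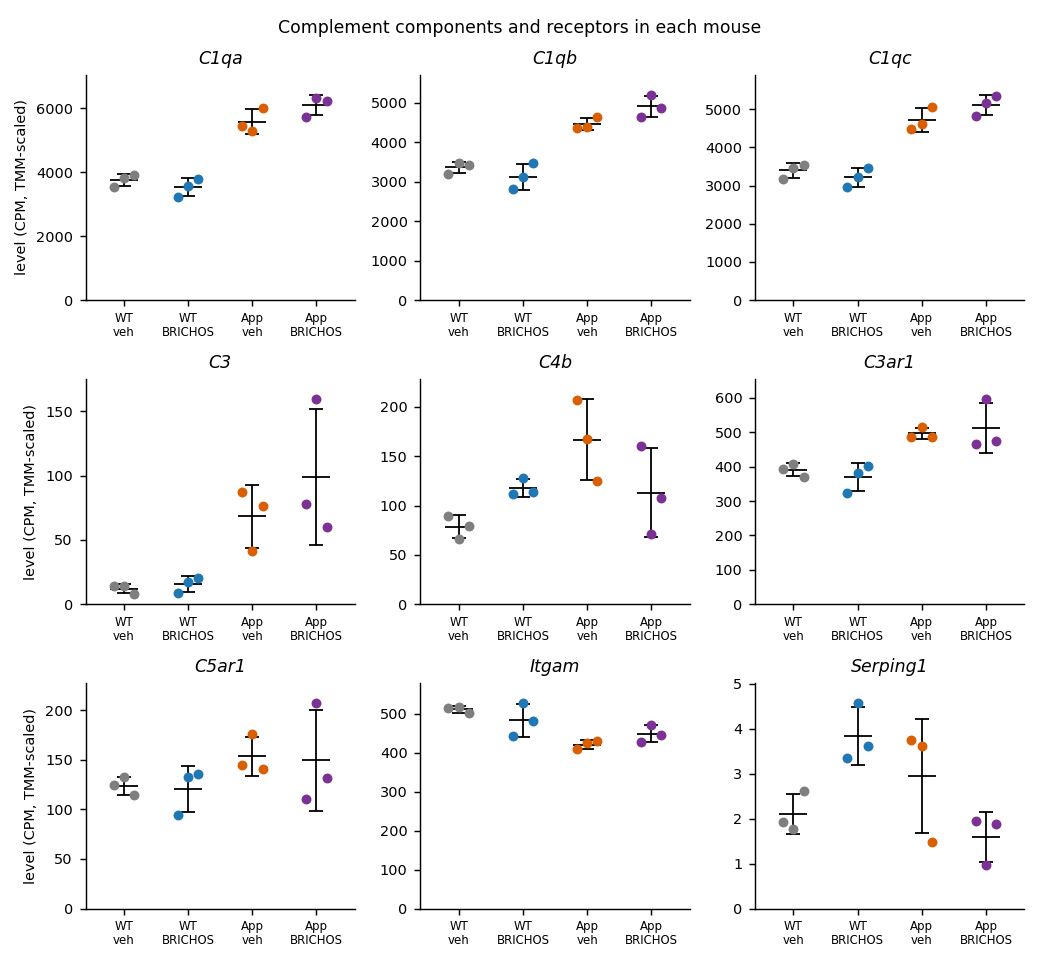
Levels of the 9 complement genes (CPM with TMM factors, vertical axes from 0 with a scale of their own) in each mouse of the 4 groups. Points are mice, and the bar and whiskers are the mean ± SD of 3 mice. The 3 C1q genes, C3 and C3ar1 are higher in every App mouse than in any WT mouse, whereas C4b, C5ar1 and Serping1 overlap between the groups.

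The first question was how the strains differ without treatment. Between veh-treated App and WT mice, 6 of the 9 members were upregulated at an adjusted p-value under 0.05 (C1qa, C1qb, C1qc, C3, C4b and C3ar1), Itgam was downregulated, and C5ar1 and Serping1 did not pass the test. Of all tested genes, 20.1% were called higher and 16.9% lower in this comparison. The groups did not overlap for 8 of the 9 members, against 50.9% of all tested genes. The median log2 fold change was 0.47 over the members and -0.02 over all tested genes.

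The C1q genes lie side by side on chromosome 4 (GRCm38), C1qa at 136895917-136898803, C1qc at 136889804-136893065 and C1qb at 136880129-136886187, all on the minus strand, and their protein products assemble in equal numbers. C1qa was at 3551, 3826 and 3911 CPM in veh-treated WT mice and at 5447, 5301 and 6021 CPM in veh-treated App mice. Every App value was above every WT value. The log2 fold change was 0.57 ± 0.08 (SE), a factor of 1.49 (95% interval 1.31 to 1.69), with an adjusted p-value of 0.000265.

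C1qb was at 3186, 3463 and 3424 CPM in WT and at 4364, 4393 and 4635 CPM in App mice. C1qc was at 3185, 3466 and 3553 CPM in WT and at 4480, 4612 and 5063 CPM in App mice. For neither gene did the strains overlap. The log2 fold changes were 0.41 ± 0.08 for C1qb (adjusted p = 0.00254) and 0.47 ± 0.08 for C1qc (adjusted p = 0.000945). Together the 3 genes took 1.08 to 1.18% of all counted reads in veh-treated WT and 1.33 to 1.47% in veh-treated App mice.

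The fitted factor was larger for C1qa than for C1qb. The ratio of C1qa to C1qb, both per kilobase, was 1.16 to 1.20 in veh-treated WT and 1.26 to 1.36 in veh-treated App mice. The mice of the strains did not overlap in this ratio, and they did not in the BRICHOS-treated groups, at 1.15 to 1.21 in WT and 1.28 to 1.34 in App mice. The difference in veh-treated mice was 0.16 on the log2 scale, with a p-value of 0.1 in an exact two-sided permutation test, the smallest that 3 mice against 3 allow, and 0.1 after adjustment over the 3 ratios tested.

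The start regions of C1qb and C1qc are shown because the genes rose together, and that of Itgam because it did not. RefSeq windows (GRCm38.p6) were at hand for 6 of the 9 members, from 250 bases before to 50 after the RefSeq start of each gene. For C1qc this start lies inside the span given above and not at its edge. The windows were searched on both strands for GAGGAA, the core letters that the myeloid factor PU.1 recognises. At C1qb (chr4:136886151-136886450, minus strand) the letters occur once on the strand of the gene, at C1qc (chr4:136892865-136893164, minus strand) once on the opposite strand, and at Itgam (chr7:128062390-128062689, plus strand) 1 time on the strand of the gene and 2 times on the opposite strand, without overlap. The windows are given 5′ to 3′ on the strand of the gene, with GAGGAA or its reverse complement TTCCTC in capitals.
C1qb: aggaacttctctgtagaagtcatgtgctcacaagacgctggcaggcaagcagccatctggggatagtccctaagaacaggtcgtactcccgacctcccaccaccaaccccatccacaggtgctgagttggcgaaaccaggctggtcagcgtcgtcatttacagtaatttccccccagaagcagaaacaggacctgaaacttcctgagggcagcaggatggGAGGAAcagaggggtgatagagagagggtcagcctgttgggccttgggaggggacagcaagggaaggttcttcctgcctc
C1qc: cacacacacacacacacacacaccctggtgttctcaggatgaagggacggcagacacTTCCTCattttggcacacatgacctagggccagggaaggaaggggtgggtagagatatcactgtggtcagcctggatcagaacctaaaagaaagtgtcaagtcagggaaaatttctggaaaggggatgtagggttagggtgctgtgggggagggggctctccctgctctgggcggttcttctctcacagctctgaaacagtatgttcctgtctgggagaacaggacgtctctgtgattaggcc
Itgam: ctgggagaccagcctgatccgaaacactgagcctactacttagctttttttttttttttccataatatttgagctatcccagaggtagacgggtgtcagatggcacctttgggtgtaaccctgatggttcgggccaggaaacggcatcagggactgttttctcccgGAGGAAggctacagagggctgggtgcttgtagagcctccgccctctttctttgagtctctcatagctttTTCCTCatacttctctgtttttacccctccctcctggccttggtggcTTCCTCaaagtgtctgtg
The windows of C3, C3ar1 and C5ar1 do not hold these letters. They were present in 28.3% of the 32851 windows of this length in the table, so that their occurrence in 3 of 6 is a description of these sequences only.

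C3, the component on which the pathways converge, lies at 57203970-57228136 of chromosome 17. It was at 14.2, 14.5 and 7.90 CPM in veh-treated WT mice and at 87.3, 41.1 and 76.5 CPM in veh-treated App mice. The lowest App mouse was still well above the highest WT mouse, although mice of a group differed widely. The log2 fold change of 2.48 ± 0.44, a factor of 5.56 (95% interval 2.85 to 10.9), was the largest of the members, with an adjusted p-value of 0.00106.

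C4b, which carries the cascade from C1 to C3, lies at 34728380-34743882 of chromosome 17. It was at 89.6, 66.4 and 79.6 CPM in WT and at 207, 168 and 125 CPM in App mice. The groups did not overlap, and the log2 fold change was 1.09 ± 0.25 (adjusted p = 0.00575). Its paralog C4a was near the detection limit, at 0.37 to 0.97 CPM in veh-treated mice, but 16.5% of the windows of 100 bases along the C4b transcript are identical to a stretch of C4a. How reads shared between genes were counted is not stated, so the count of C4b is uncertain to that extent.

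All 10 astrocyte markers were higher in veh-treated App than WT mice at an adjusted p-value under 0.05, with a median log2 fold change of 2.18. C4b, which astrocytes are known to make, was 207 and 168 CPM in the App mice 1 and 2, where the markers summed to 4912 and 4392 CPM, and 125 CPM in mouse 3, where they summed to 1534. Their part in the rise of C4b was not tested. C3 did not have this order, with 76.5 CPM in mouse 3, 87.3 in mouse 1 and 41.1 in mouse 2. Oligodendrocytes, which are also known to make C4, went the other way, with a summed level of 7 markers of 9668 to 16932 CPM in WT and 3214 to 5635 CPM in App mice, 2 of the 7 being called lower and none higher.

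Of the receptors, C3ar1 (chromosome 6, 122847138-122856161), through which C3a signals, was at 394, 408 and 370 CPM in WT and at 488, 515 and 487 CPM in App mice. The groups did not overlap, and the log2 fold change was 0.35 ± 0.10 (adjusted p = 0.0184). This call was lost without the veh-treated WT mouse 3 (adjusted p = 0.0655), without the veh-treated App mouse 2 (adjusted p = 0.0614) and without TMM factors (log2 fold change 0.16, adjusted p = 0.152).

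C5ar1 (chromosome 7, 16246743-16259540), the receptor of C5a, was at 124, 132 and 114 CPM in WT and at 144, 176 and 140 CPM in App mice. The groups did not overlap here either, but the log2 fold change of 0.31 (95% interval -0.14 to 0.77) did not pass the test, with an adjusted p-value of 0.258. When the fit held only these 6 libraries it did, at an adjusted p-value of 0.0351.

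Itgam (chromosome 7, 128062640-128118491) was at 516, 517 and 501 CPM in WT and at 409, 425 and 430 CPM in App mice. It was the only member to fall, by 0.28 ± 0.06 on the log2 scale (adjusted p = 0.00513), and the groups did not overlap. Its product is the antigen by which the cells were isolated. An exon of the gene Gm49368 overlaps an exon of Itgam on the same strand, with a mean of 14.1 counts.

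Markers of other cells that carry CD11b were lower in this comparison too. All 6 neutrophil markers and all 6 markers of border macrophages were lower in veh-treated App than WT mice, the latter with sums of 167 to 224 against 389 to 460 CPM, and 7 of the 10 microglial markers were lower and 2 higher. Among the veh-treated WT mice, Itgam was 516, 517 and 501 CPM where the neutrophil markers summed to 366, 300 and 32.8 CPM. Between the BRICHOS-treated strains, all 6 border macrophage and 3 of 6 neutrophil markers were called lower. Itgam was at 428 to 472 CPM in App and 443 to 527 CPM in WT mice there. In WT mice upon treatment, 5 of 6 border macrophage markers were higher at an unadjusted p-value under 0.05. The part of these cells in the level of Itgam was not tested in any of the comparisons.

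The partner and the paralog of CD11b went the other way. Itgb2, which encodes CD18, the shared partner of both receptors, rose by 0.40 ± 0.06 on the log2 scale (adjusted p = 0.000252), from 582 to 631 CPM in WT to 788 to 856 in App mice. Itgax, which encodes the CD11c subunit of complement receptor 4, was at 44.4, 40.2 and 54.3 CPM in WT and at 1581, 1842 and 1919 CPM in App mice, a log2 fold change of 5.27 ± 0.14 (adjusted p = 8.74e-10) and the fifth lowest p-value of all tested genes. Per kilobase, Itgax was thus 0.081 to 0.113 times the level of Itgam in WT and 4.04 to 4.67 times in App mice, and Itgam was 0.486 to 0.538 and 0.305 to 0.328 times the level of Itgb2. The exact two-sided permutation test gave 0.1 for each of these ratios. Itgam and Itgax share no identical stretch of 100 bases in their transcripts.

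**Figure D2:**
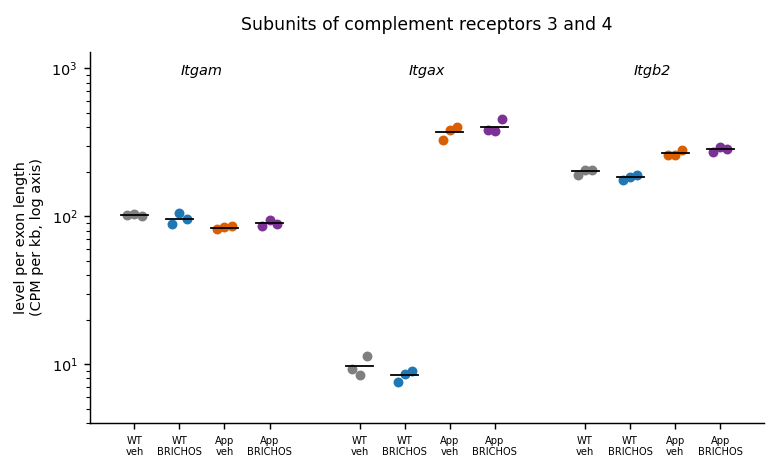
Levels of Itgam, Itgax and Itgb2 (CPM per kilobase of exon, log axis) in each mouse of the 4 groups. Points are mice and bars are means. Itgam lies between 81.4 and 105 in every mouse, while Itgax is below Itgam in all WT mice and above it in all App mice.

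Serping1 (chromosome 2, 84765387-84775444) was at 1.92, 1.78 and 2.61 CPM in WT and at 3.76, 3.61 and 1.48 CPM in App mice. App mouse 3 was below all WT mice and the other two above them, and the log2 fold change of 0.50 (95% interval -0.28 to 1.29) had an adjusted p-value of 0.296. These levels rest on 15 to 81 counts per library over all groups.

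The next question was what rh Bri2 BRICHOS R221E did in App mice. The veh-treated App mice are the same as in the comparison above. None of the 9 members passed an adjusted p-value under 0.05 with edgeR or with DESeq2's Wald test, where 0.00648% of all tested genes did with edgeR. At an unadjusted p-value under 0.05, C4b and Serping1 were lower, 2 of 9 members, against 10.8% of all tested genes in either direction. C1qb was the only member whose groups did not overlap, against 13.5% of all tested genes.

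C1qa was at 5742, 6343 and 6223 CPM in the BRICHOS-treated App mice, C1qb at 4647, 5191 and 4873 and C1qc at 4817, 5164 and 5340 CPM. The log2 fold changes against veh were 0.13 for C1qa (95% interval -0.06 to 0.31), 0.14 for C1qb (-0.05 to 0.32) and 0.11 for C1qc (-0.07 to 0.29). For C1qb every BRICHOS-treated mouse lay above the veh-treated ones, the nearest at 4647 against 4635 CPM, while the groups of C1qa and C1qc overlapped.

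C4b was at 160, 71.1 and 108 CPM in BRICHOS-treated and at 207, 168 and 125 CPM in veh-treated App mice. The groups overlapped. The log2 fold change was -0.56 (95% interval -1.11 to -0.01), with an unadjusted p-value of 0.046 and an adjusted one of 0.447. It was -0.36 without the veh-treated mouse 1, -0.90 without the BRICHOS-treated mouse 1 and -0.31 without the BRICHOS-treated mouse 2. All 10 astrocyte markers were lower at an unadjusted p-value under 0.05 in the same comparison, none of them at an adjusted one, with a median log2 fold change of -1.40. In the order of the mice, they summed to 2056, 703 and 1362 CPM in the BRICHOS-treated group. Over the 6 App mice, C4b and the astrocyte sum thus had the same order, from 207 CPM at the highest sum to 71.1 CPM at the lowest. Of the 7 oligodendrocyte markers, 6 had a log2 fold change above 0 and 1 below, none with an unadjusted p-value under 0.05. At that threshold, 6 of 7 endothelial, 2 of 6 fibroblast and 2 of 6 mural markers were lower, and none of these higher. The part of RNA of these cell types in the difference was not tested.

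Serping1 was at 1.94, 0.96 and 1.89 CPM in BRICHOS-treated App mice, with a log2 fold change of -0.90 (95% interval -1.70 to -0.09, unadjusted p = 0.0318, adjusted p = 0.404). The veh-treated mouse 3, at 1.48 CPM, lay within the BRICHOS-treated group. Without 1 library at a time the value was between -1.21 and -0.62. All 10 astrocyte and 6 of 7 endothelial markers were lower at an unadjusted p-value under 0.05 in this comparison. Of the 6 fibroblast markers, 2 were lower at that threshold and none higher. Their sums were 9.19 to 10.9 CPM in veh-treated and 4.16 to 8.20 CPM in BRICHOS-treated App mice. All 6 markers of choroid plexus and ependyma had a log2 fold change below 0, none at that threshold. Serping1 was highest in the veh-treated mice 1 and 2, with the astrocyte sums of 4912 and 4392 CPM, and lowest in the BRICHOS-treated mouse 2, with 703 CPM. The part of these cells was not tested.

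C3 was at 78.2, 159 and 59.7 CPM in BRICHOS-treated App mice, with a log2 fold change of 0.54 (95% interval -0.34 to 1.41). BRICHOS-treated mouse 2 stood apart at 159 CPM, and without it the log2 fold change was 0.02. In this mouse the astrocyte markers were at their lowest of the App mice, and C3ar1 (596 CPM), C5ar1 (207 CPM), C1qa (6343 CPM), C1qb (5191 CPM) and Itgam (472 CPM) were at their highest of those mice. C4b and Serping1 were at their lowest there. The other BRICHOS-treated mice had 465 and 474 CPM of C3ar1, 110 and 132 CPM of C5ar1 and 428 and 447 CPM of Itgam. The log2 fold changes of these 3 genes were 0.04 (95% interval -0.18 to 0.26), -0.04 (-0.49 to 0.41) and 0.09 (-0.05 to 0.23).

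**Figure D3:**
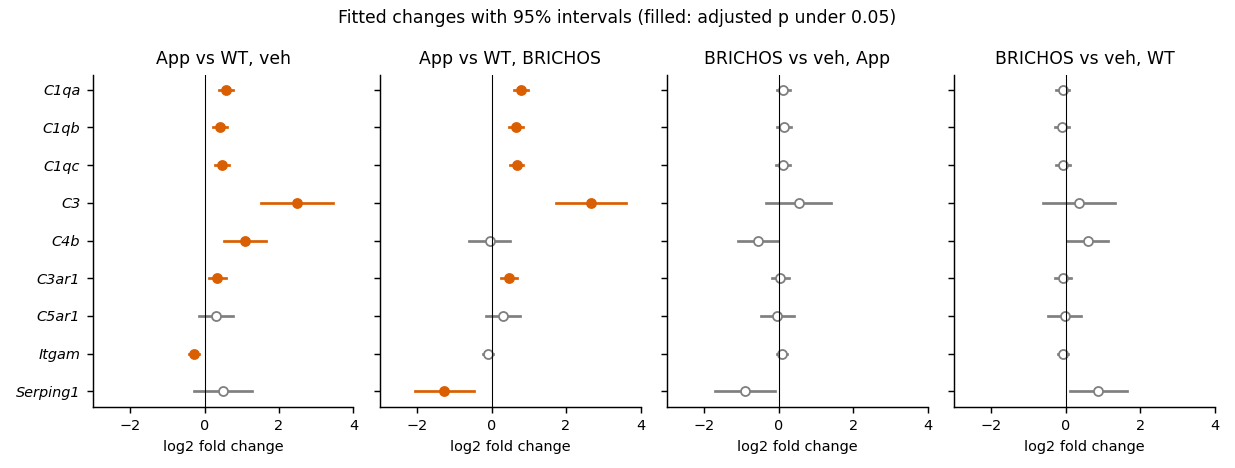
Fitted log2 fold changes of the 9 members with 95% intervals in 4 comparisons, 1 per panel. Filled symbols have an adjusted p-value under 0.05. In this fit members pass in the comparisons between the strains and in neither treatment comparison, and the intervals of C3, C4b, C5ar1 and Serping1 are the widest.

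In WT mice, none of the 9 members passed an adjusted p-value under 0.05 with edgeR or DESeq2 upon treatment, as was the case for 0% of all tested genes with edgeR. At an unadjusted p-value under 0.05, 2 of the 9 were higher, again C4b and Serping1, against 11.4% of all tested genes in either direction. The same 2 genes were the ones whose groups did not overlap, against 17.5% of all tested genes. The treated and veh-treated WT mice are other animals than the App mice, so the treatment comparisons of the strains share no samples.

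C4b was at 111, 128 and 114 CPM in BRICHOS-treated WT mice and at 89.6, 66.4 and 79.6 CPM in veh-treated WT mice. The log2 fold change was 0.58 (95% interval 0.03 to 1.14, unadjusted p = 0.04, adjusted p = 0.413). In the order of the mice the astrocyte markers summed to 486, 913 and 941 CPM in the BRICHOS-treated group, the last 2 above the 481 to 679 CPM of the veh-treated one, and 9 of the 10 markers had a log2 fold change above 0, none with an unadjusted p-value under 0.05. All 7 oligodendrocyte markers had a log2 fold change below 0, again none with an unadjusted p-value under 0.05. At that threshold, 4 of 6 fibroblast, 5 of 6 border macrophage and 3 of 6 choroid plexus and ependyma markers were higher, and none of these lower. The part of RNA of these cell types in this difference was not tested.

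Serping1 was at 3.34, 4.56 and 3.61 CPM in BRICHOS-treated WT mice, above each of the veh-treated ones, with a log2 fold change of 0.87 (95% interval 0.10 to 1.64, unadjusted p = 0.0294, adjusted p = 0.393). Of 6 fibroblast markers, 4 were higher in the same comparison at an unadjusted and none at an adjusted p-value under 0.05. Their summed level was 10.4 to 16.5 CPM in veh-treated and 21.9 to 31.4 CPM in BRICHOS-treated WT mice. By the same unadjusted threshold, 5 of 6 markers of border macrophages and 3 of 6 of choroid plexus and ependyma were higher too, the latter with sums of 839 to 3832 CPM in veh-treated and 3184 to 6647 CPM in BRICHOS-treated mice. None of the 10 astrocyte markers passed that threshold, and 9 of them had a log2 fold change above 0. Fibroblasts are known to make the C1 inhibitor. The part of these cells in the level of Serping1 was not tested.

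The remaining members did not pass an unadjusted p-value under 0.05 in WT mice, and the interval of C3 was wide. BRICHOS-treated WT mice had 3232, 3571 and 3799 CPM of C1qa, 2805, 3108 and 3462 of C1qb and 2958, 3220 and 3470 of C1qc, with log2 fold changes of -0.09 (95% interval -0.27 to 0.09), -0.10 (-0.29 to 0.08) and -0.08 (-0.26 to 0.10). Mouse 1 was the lowest of all 12 mice for each of the C1q genes. It was also the lowest of its group for C3, at 8.82 against 17.2 and 20.7 CPM, for C3ar1, at 324 against 382 and 403, for C5ar1, at 94.1 against 132 and 136, and for Itgam, at 443 against 527 and 481 CPM. The log2 fold changes of these 4 genes in WT mice were 0.35 (95% interval -0.62 to 1.32), -0.08 (-0.30 to 0.14), -0.03 (-0.49 to 0.42) and -0.08 (-0.22 to 0.06).

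Whether the treatment acted differently in the strains was tested as the difference of the treatment effects, App minus WT. None of the 9 members passed an adjusted p-value under 0.05 with edgeR, against 0.00648% of all tested genes. At an unadjusted p-value under 0.05, 2 of 9 members passed, against 14.8% of all tested genes. These were C4b, with -1.14 ± 0.36 on the log2 scale (unadjusted p = 0.00779, adjusted p = 0.21), and Serping1, with -1.77 ± 0.51 (unadjusted p = 0.00482, adjusted p = 0.187). With DESeq2's Wald test C4b passed, at an adjusted p-value of 0.0431, and Serping1 did not, at 0.0661. The share of all genes that the Wald test called was not counted, so the share above does not apply to it. For the C1q genes the difference was 0.22 for C1qa, 0.24 for C1qb and 0.19 for C1qc, with adjusted p-values of 0.37 to 0.463.

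**Figure D4:**
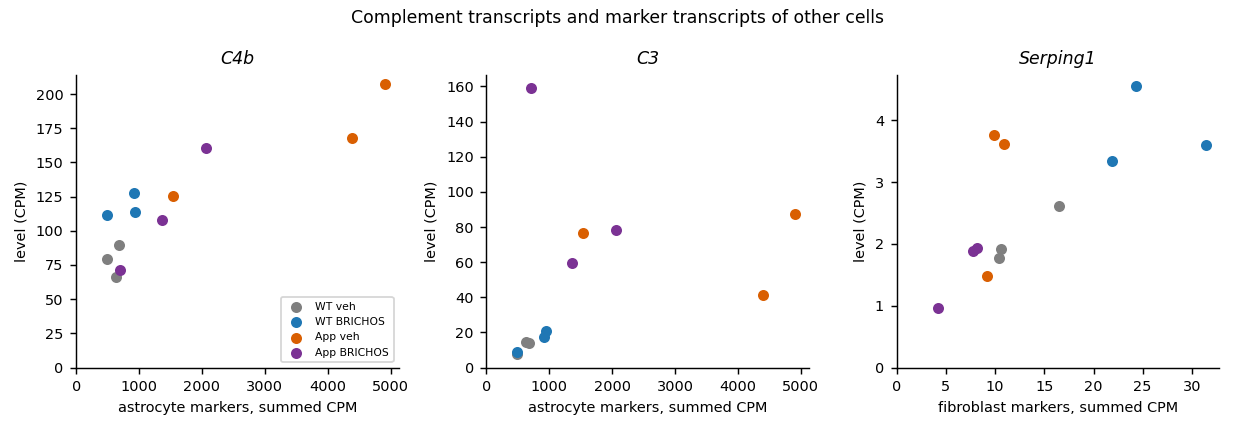
Levels of C4b and C3 (CPM) against the summed CPM of 10 astrocyte markers, and of Serping1 against the summed CPM of 6 fibroblast markers, with 1 point per mouse and colours for the groups. C4b is highest where the astrocyte sum is highest (207 CPM at 4912). Over all mice the order does not hold, with 111 CPM at 486 in a BRICHOS-treated WT and 71.1 CPM at 703 in a BRICHOS-treated App mouse. C3 is highest in a mouse with a low astrocyte sum (159 CPM at 703). The highest Serping1 values include those of the BRICHOS-treated WT mice, whose fibroblast sums are 21.9 to 31.4. They also include those of the veh-treated App mice 1 and 2 (3.76 and 3.61 CPM), whose fibroblast sums are 9.84 and 10.9.

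The strains were also compared under treatment. This comparison uses other mice than that of the veh-treated groups. Of the 9 members, 5 were higher in BRICHOS-treated App than in BRICHOS-treated WT mice at an adjusted p-value under 0.05, where 20.8% of all tested genes were, and 1 was lower, where 21.8% of all tested genes were. The groups did not overlap for 6 of the 9 members, against 51.7% of all tested genes. Without TMM factors the split was 4 higher and 2 lower.

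The genes called higher were C1qa with a log2 fold change of 0.79 ± 0.08 (adjusted p = 2.05e-05), C1qb with 0.65 ± 0.08 (adjusted p = 8.9e-05), C1qc with 0.67 ± 0.08 (adjusted p = 6.73e-05), C3 with 2.67 ± 0.43 (adjusted p = 0.000489) and C3ar1 with 0.47 ± 0.10 (adjusted p = 0.00303). C3ar1 lost its call without TMM factors (log2 fold change 0.19, adjusted p = 0.0705). C5ar1 had a log2 fold change of 0.31 (95% interval -0.14 to 0.76).

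C4b, at 71.1 to 160 CPM in App and 111 to 128 CPM in WT mice, had a log2 fold change of -0.06 (95% interval -0.60 to 0.49, adjusted p = 0.874). Itgam, at 428 to 472 and 443 to 527 CPM, had one of -0.11 (95% interval -0.25 to 0.03, adjusted p = 0.201), and was called lower without TMM factors (-0.38, adjusted p = 0.000248). That these genes were called between the veh-treated and not between the BRICHOS-treated strains does not show that the differences are unequal. The test of that is the difference of the treatment effects, with an adjusted p-value of 0.21 for C4b and 0.397 for Itgam.

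Serping1 was the member called lower, with 0.96 to 1.94 CPM in App against 3.34 to 4.56 CPM in WT mice, a log2 fold change of -1.27 ± 0.36 (adjusted p = 0.0146). The call was lost without WT mouse 2 (adjusted p = 0.0526) and without App mouse 2 (adjusted p = 0.056). Of the 6 fibroblast markers, 5 were lower too, with sums of 4.16 to 8.20 CPM in App mice, and all 6 markers of choroid plexus and ependyma were lower. Their part in the level of Serping1 was not tested.

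A further 50 genes of the complement system were listed by role, of which 26 were tested. Between veh-treated App and WT mice, 6 of the 26 were called higher, against 20.1% of all tested genes, and 4 lower, against 16.9%, shares close to those of all genes. The split was 5 and 9 without TMM factors, and the median log2 fold change was -0.17. Between the BRICHOS-treated strains, 6 of the 26 were called higher and 10 lower, against 20.8% and 21.8% of all tested genes. Upon treatment, none was called in App or in WT mice by edgeR, while 4 in App mice (Cfp, Cd93, Clu and Vtn, all lower) and 7 in WT mice had an unadjusted p-value under 0.05, against 10.8% and 11.4% of all tested genes. DESeq2's Wald test called 1 in App mice, Vtn, with a log2 fold change of -0.66 and an adjusted p-value of 0.0495. The share of all genes that it called was not counted. In the same comparison 6 of 7 endothelial and 2 of 6 mural markers were lower at an unadjusted p-value under 0.05, none at an adjusted one, with endothelial sums of 381 to 440 CPM in BRICHOS-treated and 468 to 619 CPM in veh-treated App mice. The part of vascular RNA in the levels of Vtn and Cd93 was not tested.

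The early proteases and the terminal components were sparse in these cells. Of 6 further genes of the classical pathway 4 were tested, C1ra, C1s1, C2 and C4a, and none was called between the veh-treated strains. C1s1 was lower in the BRICHOS-treated App than WT mice (-1.69 ± 0.45, adjusted p = 0.0107), at 9 to 13 against 28 to 67 counts per library. In that comparison 5 of 6 fibroblast, all 6 choroid plexus and ependyma and 6 of 7 endothelial markers were called lower, and none of these higher. The part of these cells in the level of C1s1 was not tested. Of 7 terminal genes only C8g was tested, without a call. C7 and C8b had no count in any library, and C8a and C9 had 1 count each over all 12 libraries. Cfd, which encodes a protease of the alternative pathway, was at 0, and Cfb reached at most 4 counts in a library. At these depths such counts do not show that the genes are silent.

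Of the lectin pathway, Masp1, which encodes a serine protease, rose from 13.4 to 14.5 CPM in veh-treated WT to 49.8 to 55.3 CPM in veh-treated App mice, a log2 fold change of 1.91 ± 0.08 (adjusted p = 2.26e-08). Fcna, which encodes a ficolin, was called lower between the BRICHOS-treated strains (-1.32 ± 0.26, adjusted p = 0.00181) and had a log2 fold change of -0.70 between the veh-treated ones (adjusted p = 0.0517 with edgeR, 0.0238 with the replicate number as a block and 0.0308 with DESeq2's Wald test). In the alternative pathway Cfp encodes properdin, which stabilises the convertase of that pathway. Cfp fell by 0.94 ± 0.19 on the log2 scale between the veh-treated strains (adjusted p = 0.00259). All 6 neutrophil, all 6 border macrophage and 2 of 4 monocyte markers were called lower there as well, and none higher. The part of these cells in the levels of Fcna and Cfp was not tested.

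All 5 further receptor genes tested passed between the veh-treated strains, 3 higher and 2 lower, against 20.1% and 16.9% of all tested genes. Itgax, Itgb2 and C1qbp, whose product binds the globular heads of C1q, were higher, the last at 50.7 to 54.1 against 37.1 to 41.1 CPM (0.42 ± 0.06, adjusted p = 0.00015). C5ar2, the other receptor of C5a, was lower, at 34.0 to 37.9 against 49.9 to 56.1 CPM (-0.59 ± 0.08, adjusted p = 0.000126), whereas the fitted value of C5ar1 was above 0. Cd93, once proposed as a receptor of C1q, was lower as well (-0.82 ± 0.16, adjusted p = 0.0018). Of the 7 endothelial markers, 5 were called lower in this comparison and none higher. The part of endothelial RNA in the level of Cd93 was not tested.

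Of the soluble regulators, Clu, the gene of clusterin, an inhibitor of the terminal complex that astrocytes also make, was at 814, 719 and 314 CPM in veh-treated App mice and at 346, 124 and 261 CPM in BRICHOS-treated ones. In the 2 App groups these have the order of the astrocyte sums, as C4b has. In veh-treated WT mice they do not, with 129, 124 and 190 CPM of Clu and 89.6, 66.4 and 79.6 CPM of C4b at astrocyte sums of 679, 636 and 481 CPM. Vtn, the gene of vitronectin, which binds the terminal complex, was called lower between the BRICHOS-treated strains (-1.24 ± 0.19, adjusted p = 0.000273), with -0.50 between the veh-treated ones, at an adjusted p-value of 0.0515 with edgeR and 0.0257 with DESeq2's Wald test.

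Among the membrane regulators, Cd46 was lower in both comparisons of the strains, at -1.20 ± 0.18 (adjusted p = 0.000305) and -1.25 ± 0.18 (adjusted p = 0.000175) on the log2 scale, with 1.41 to 1.61 CPM in App and 3.06 to 3.90 CPM in WT mice. An exon of A330023F24Rik, with a mean of 10.7 counts, overlaps Cd46 on the opposite strand. Cd55, Cd59a and Susd4 were called lower between the BRICHOS-treated strains (-2.03, -1.46 and -1.30, adjusted p = 0.00158, 0.00181 and 0.0379), and Cr1l was called higher there (0.25, adjusted p = 0.00105). Markers of other cells were lower in that comparison as well, namely 6 of 7 endothelial, 5 of 6 mural (the other being higher), 5 of 7 neuronal and all 4 B cell markers beside those of fibroblasts, choroid plexus and border macrophages, the last 6 of 6. Their part in these differences was not tested. For the genes called in only 1 comparison, the difference between the comparisons is the difference of the treatment effects, in which none of the 26 genes passed an adjusted p-value under 0.05 with edgeR, and 9 had an unadjusted one, against 14.8% of all tested genes.

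**Figure D5:**
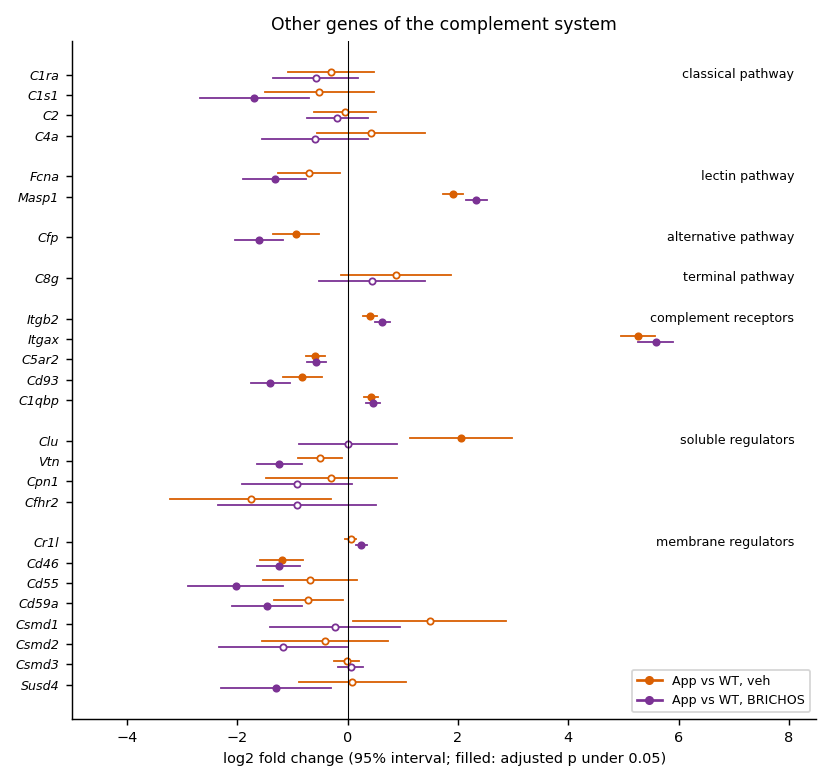
Fitted log2 fold changes with 95% intervals for 25 of the 26 other complement genes tested, grouped by role, between the veh-treated strains (orange) and between the BRICHOS-treated strains (purple). Filled symbols have an adjusted p-value under 0.05. Itgax has the largest rise, at 5.27 and 5.59, and most membrane regulators lie below 0.

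The genes whose log2 CPM followed each member most closely over the 12 libraries were taken from 10750 genes with a mean of at least 5 CPM. The libraries share their 4 groups, so these correlations largely restate which genes differ between the strains, and they are given as a description. C1qa was closest to C1qc (Pearson's r = 0.997), Erp29 (0.996) and Tapbp (0.995), C1qb to C1qa (0.991), Ctss (0.99) and C1qc (0.989), and C1qc, after C1qa, to Erp29 (0.994) and Elk3 (0.993). The genes nearest to C3 were Txn1 (0.982), Ube2l6 (0.978) and Psmb9 (0.977), and those nearest to C3ar1 were Itprip (0.986), Rasgef1b (0.985) and H2-Q5 (0.985).

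The nearest genes of the other members were less close. They were Slc25a23 (0.946), Pcdhgc3 (0.939) and Scara3 (0.934) for C4b, Pdrg1 (0.911), Slc25a33 (0.905) and Slfn2 (0.904) for C5ar1, Marcks (0.945), Sparc (0.943) and Tpm3 (0.943) for Itgam, and Maob (0.94), Slc38a3 (0.921) and Tead1 (0.904) for Serping1. After the group means were subtracted, Rasgef1b was again among the nearest 3 genes of C3ar1 (0.969) and Psmb9 among those of C3 (0.928).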

How the data were processed

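CD11b-positive cortical cells of 12 mice were sequenced in bulk. Per the labels and the methods, libraries were made with a stranded mRNA kit, reads were trimmed with Cutadapt, aligned to GRCm38 with STAR (2.6.1d in the submitters' processing notes, another version in the methods) and counted on genes with featureCounts 1.5.1, and the authors deposited raw counts per gene without normalization. The strand setting and the handling of reads shared between genes are not given in the sources used here. Libraries were assigned to groups by their names, and 55227 of 55487 gene identifiers were matched to GENCODE M21 (GRCm38).

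The complement genes and the marker lists were chosen with earlier results of these data known. Genes kept by filterByExpr (minimum count 10), 15425 in all, were fitted with edgeR 4.0.16 in R 4.3.3 (TMM, a mean per group, glmQLFit and glmQLFTest), and p-values were adjusted by Benjamini and Hochberg over all of them. CPM were computed with the TMM factors, log2 CPM with a prior count of 2, and levels per kilobase with the exons of all annotated transcripts. The named genes are the members, the listed complement genes that passed in a comparison, the paralogs C4a and Itgax, the partner Itgb2 and the 3 genes nearest to each member. C1ra, C2, C8g, Cfb, Cfd, C7, C8a, C8b and C9 were named after their values were seen, as were Rasgef1b and Psmb9 out of the genes nearest after subtraction of group means. Some genes that this rule also takes are not reported here. Ratios were compared with exact permutation tests. The alternatives were DESeq2's size factors and Wald test (1.42.0), other filters and thresholds, only the compared groups, the replicate number as a block, and leaving out each library. Scaling by library size only was added after the data had been seen. The fit was tested on simulated data. Figures were drawn with matplotlib 3.10.9 in Python 3.11.15. The p-values measure the spread between these mice.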

Additional observations from a re-analysis of the deposited data

How the results depend on the processing

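At an adjusted p-value under 0.05, the C1q genes, C3, C4b and Itgam between the veh-treated strains, and the C1q genes and C3 between the BRICHOS-treated ones, kept their direction and call under every alternative scaling, filter, tool, block and left-out library run. With an additional cutoff of 1 on the absolute log2 fold change, 2 members (C3 and C4b) and 4 other complement genes were called between the veh-treated strains, and 2 members between the BRICHOS-treated ones. The shares of all tested genes under this cutoff were not counted, so whether these counts differ from them is not known. At an unadjusted p-value under 0.05, 2 members were called in App mice, 2 in WT mice and 2 for the difference of the treatment effects, with 4 and 7 other complement genes in App and WT mice. DESeq2's Wald test called 1 member for that difference (C4b, -1.12) and 1 other complement gene in App mice (Vtn), without a count of its calls over all genes. Scaling by library size only, chosen after the data had been seen, moved the median of all tested genes by -0.19 between the veh-treated and -0.27 between the BRICHOS-treated strains and turned C3ar1 to -0.0094 in App mice. The difference of the treatment effects for C5ar1, -0.0042 as reported, was 0.0189 with DESeq2's size factors, 0.0174 without a filter and 0.0243 with the Wald test, and the cause was not tested. Leaving out 1 library at a time gave values on both sides of 0 for C5ar1 in App mice (-0.34 to 0.14), in WT mice (-0.13 to 0.11) and for the difference (-0.30 to 0.18), for C3 in the difference (-0.33 to 0.45), for C3ar1 in App (-0.0729 to 0.11) and WT mice (-0.15 to 0.0025), and for C4b between the BRICHOS-treated strains (-0.39 to 0.19). None of these was called.

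Equally numbered mice share only a number. The correlations of their deviations from the group means were 0.0564 to 0.174 between the veh-treated strains, 0.00978 to 0.178 in App, 0.0599 to 0.227 in WT mice and -0.0148 to 0.218 between the BRICHOS-treated strains. With the replicate number as a block, 7 members were called between the veh-treated and 6 between the BRICHOS-treated strains, and it changed no member's call. The low counts of Serping1 and the wide spread of C3 limit what 3 mice per group can show.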
